A study of Mus musculus with 4 samples.

Results

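The genes described here are 43 genes of the cell cycle. They were chosen by name, with earlier results of these data known. They are cyclins, cyclin-dependent kinases (CDKs) and their inhibitors, factors that license and copy DNA, mitotic kinases and checkpoint proteins, and markers of dividing cells. Of these, 42 had at least 1 probe set that the platform annotation assigned to that gene alone, with 95 probe sets between them, out of 18193 genes so covered. A gene counted as measured when a probe set reached the median level of the array, a linear signal of about 66.1, and 41 of the 43 did so, among 11744 measured genes. Ccnb1, which encodes cyclin B1, was not analysed here, and the 4 probe sets of Tyms, thymidylate synthase, stayed at or below 63.3 on every array.

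The cells were labelled as palatal mesenchyme, the connective tissue of the embryonic palatal shelves. They were primary cultures set up from embryos of outbred wild-type mice at E14.0, and all groups share this source and age. Markers of macrophages were bright in them too, as given below. The untreated culture received no agent, the TGF-beta2 culture received the ligand for 120 minutes, and the remaining cultures received either SB431542 or 5Z-7-oxozeaenol (oxozeaenol below) for 60 minutes and then TGF-beta2 for 120 minutes. SB431542 blocks the kinase of the TGF-beta type I receptor, and oxozeaenol blocks the Tak1 kinase. None of these 4 cultures received an inhibitor without TGF-beta2, and no dose was stated. Each group is 1 Affymetrix array, so no spread between replicates can be given, no test was run, and every difference below is between single arrays with no replicate check.

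Progress through the cycle is driven by cyclins that switch on CDKs in turn. D-type cyclins with Cdk4 and Cdk6, followed by cyclin E with Cdk2, inactivate the retinoblastoma protein and free E2F factors, which turn on genes for DNA replication, and later cyclins A and B with Cdk1 drive mitosis. CDK inhibitors of the Cip/Kip and INK4 families hold this machinery back, and in many epithelial cells TGF-beta arrests the cycle in G1 through such inhibitors. In mesenchyme of the palatal shelves, cell proliferation helps the shelves to grow towards each other.

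Most cell cycle transcripts read much alike in all 4 cultures. Of the 41 measured members, 38 lay within 2-fold in all 6 comparisons between arrays, and 3 did not: Plk2 and Plk3, which encode polo-like kinases inducible by growth factors and stress, and Cdkn1c, which encodes the CDK inhibitor p57. A member counted here when it was at least 2-fold apart on the scale log2(signal + 21.7). Every fold and log2 change given here is on that scale, so for a dim gene it is smaller than the plain ratio of the signals printed beside it. The 3 make up 7.32% of the measured members, against 6.70% of all measured genes, so their share is near the background. From the lowest to the highest array the median member spanned 0.28 on the log2 scale, and the median of all measured genes was 0.38. Member probe sets were brighter, with a median signal of 1997 against 623 for all measured genes, and the part of brightness in the narrower spans was not tested.

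**Figure D1:**
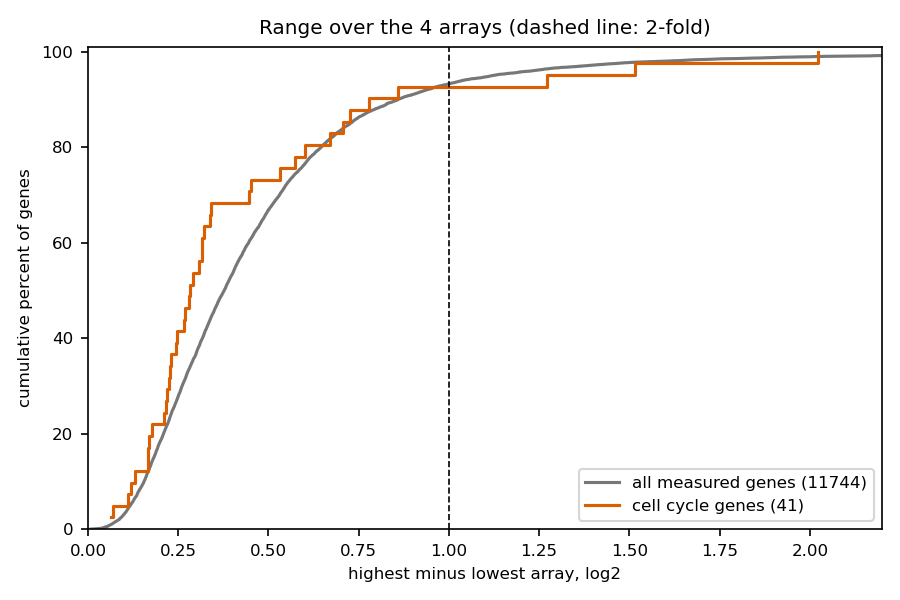
Cumulative percent of genes (y axis) by the difference between their highest and lowest array in log2 units (x axis), for the 41 measured cell cycle genes (orange) and all 11744 measured genes (grey). The orange curve runs to the left of the grey one at small ranges, and 3 members lie beyond the dashed 2-fold line.

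With TGF-beta2 over untreated, no member was at least 2-fold higher (0.673% of all measured genes were) and none was at least 2-fold lower (0.366% were). With SB431542 and TGF-beta2 over TGF-beta2 alone, the counts were again 0 higher (0.613%) and 0 lower (1.18%). With oxozeaenol over TGF-beta2 alone, Cdkn1c was higher (1.82% of all measured genes were) and Plk2 and Plk3 were lower (2.17%). Against the untreated culture, SB431542 gave 0 higher (0.468%) and 0 lower (0.383%), and oxozeaenol gave 0 higher (1.49%) and Plk3 alone lower (1.51%). Between the inhibitors, Cdkn1c was higher with oxozeaenol (1.51%) and Plk3 lower (1.3%). These comparisons reuse the same 4 arrays, and those against TGF-beta2 alone share that array. Median log2 changes of the members were −0.01, 0.06 and 0.10 for TGF-beta2, SB431542 and oxozeaenol in that order, beside −0.03, 0.03 and 0.05 for all measured genes.

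**Figure D2:**
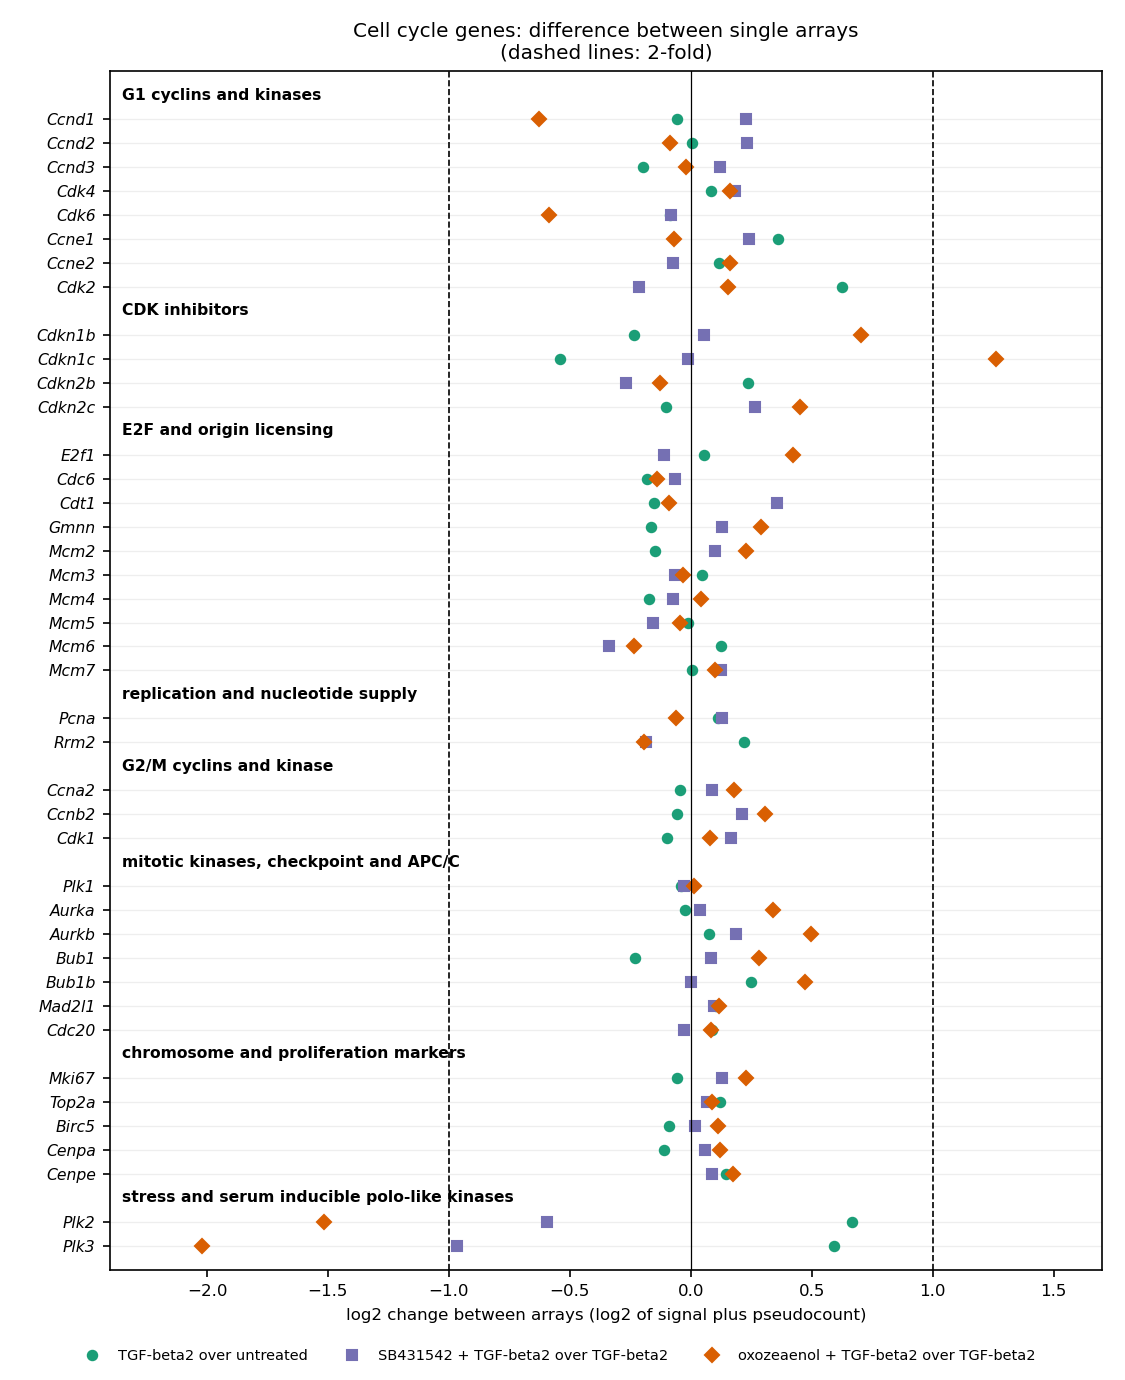
Log2 change between arrays (x axis) for each of the 41 measured members, grouped by role (y axis), with TGF-beta2 over untreated as circles, SB431542 over TGF-beta2 alone as squares and oxozeaenol over TGF-beta2 alone as diamonds; 1 array stands on each side. Outside the dashed 2-fold lines lie only the diamonds of Plk2, Plk3 and Cdkn1c, at −1.51, −2.02 and 1.26.

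The largest differences among the members belonged to Plk2 and Plk3, and for both the TGF-beta2 array was the highest and the oxozeaenol array the lowest. Plk2 read 3166 untreated, 5042 with TGF-beta2, 3334 with SB431542 and 1750 with oxozeaenol. The SB431542 culture lay beside the untreated one, between these extremes. Plk2 was thus 1.59-fold higher with TGF-beta2 than untreated, and the TGF-beta2 level exceeded that with SB431542 by 1.51-fold and that with oxozeaenol by 2.86-fold. Oxozeaenol over untreated was −0.85 on the log2 scale. A dim probe set of Plk2, under the filter, read 21.8, 74.5, 65.6 and 30.7 in the same order of arrays.

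Plk3 read 243 untreated, 377 with TGF-beta2, 182 with SB431542 and 76.5 with oxozeaenol. Here the SB431542 array was below the untreated one. Plk3 was 1.51-fold higher with TGF-beta2 than untreated and 1.95-fold lower after SB431542 than in the TGF-beta2 culture, just inside the 2-fold rule. With oxozeaenol it was 4.06-fold lower than with TGF-beta2 alone, 2.69-fold lower than untreated and 2.08-fold lower than with SB431542. Plk3 had 1 probe set, so no other reading on the array bears on it, and its oxozeaenol signal was close to the filter level. Plk1, the polo-like kinase of mitosis and a relative of both, read 1854, 1802, 1766 and 1816 in the order untreated, TGF-beta2, SB431542 and oxozeaenol, a span of 1.05-fold.

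The promoters of Plk2 and Plk3 are shown because both genes were highest with TGF-beta2 and lowest with oxozeaenol. They are RefSeq windows of the GRCm38.p6 build, from 250 bases before to 50 bases after the annotated start, written 5′ to 3′ on the gene's strand, at chr13:110394794-110395093 (plus strand) for Plk2 and chr4:117133914-117134213 (minus strand) for Plk3. Capitals mark matches, on either strand, to TGACGTCA, the cyclic AMP response element (CRE), or to its 5-letter core TGACG, which lies within the full element.
Plk2: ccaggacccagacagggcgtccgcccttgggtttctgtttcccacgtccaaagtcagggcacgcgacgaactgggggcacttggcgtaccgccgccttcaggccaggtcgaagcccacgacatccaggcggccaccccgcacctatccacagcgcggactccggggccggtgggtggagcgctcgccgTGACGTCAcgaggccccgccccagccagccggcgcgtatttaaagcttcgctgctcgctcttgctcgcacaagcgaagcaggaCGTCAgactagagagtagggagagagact
Plk3: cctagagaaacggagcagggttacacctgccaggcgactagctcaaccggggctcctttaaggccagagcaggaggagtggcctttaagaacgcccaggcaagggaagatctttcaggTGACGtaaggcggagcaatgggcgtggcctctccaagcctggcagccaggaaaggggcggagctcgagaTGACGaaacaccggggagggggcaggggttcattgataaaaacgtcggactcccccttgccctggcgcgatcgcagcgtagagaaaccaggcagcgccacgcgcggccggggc
Counted from the start, the Plk2 window held the full element with its first base at −62 and a further core at 22, and the Plk3 window held the core at −132 and −63. The full element was in 4 of the 38 windows of the members and in 1.79% of all 32851 windows, and the core in 17 of the 38 and in 20.8% of all. Of the other members with the full element, Cdkn2b was highest with TGF-beta2 and lowest with SB431542. In their brightest probe sets, Mcm5 was highest untreated and Cenpe with oxozeaenol. Members with the core alone, other than Plk3, were not compared in this way. TGANTCA, the AP-1 element, was in none of the 38 windows of the members and in 7.81% of all windows. The Smad palindrome GTCTAGAC was likewise in none of the members' windows and in 0.213% of all. CAGAC, also searched as a Smad sequence, was in 17 of the 38, that of Plk2 among them, and in 49.6% of all windows. A match is a description of the sequence only.

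Among the CDK inhibitors, the Cip/Kip members Cdkn1c and Cdkn1b were highest with oxozeaenol. Cdkn1c, which encodes p57, read 253 untreated, 167 with TGF-beta2, 166 with SB431542 and 431 with oxozeaenol. The TGF-beta2 and SB431542 arrays were the lowest and nearly equal, and the oxozeaenol array stood above the other 3. Cdkn1c was 2.40-fold higher with oxozeaenol than with TGF-beta2 alone, 2.41-fold higher than with SB431542 and 1.65-fold higher than untreated, from a single probe set. Cdkn1b, which encodes p27, read 995 untreated, 843 with TGF-beta2, 877 with SB431542 and 1388 with oxozeaenol. It followed the same order as Cdkn1c except that its SB431542 array was slightly above that of TGF-beta2, and it was 1.63-fold higher with oxozeaenol than with TGF-beta2 alone.

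The INK4 members, which bind Cdk4 and Cdk6, varied less. Cdkn2b, which encodes p15 and is a known TGF-beta target in epithelial cells, read 1388 untreated, 1638 with TGF-beta2, 1358 with SB431542 and 1500 with oxozeaenol. Its highest array was TGF-beta2, but the whole span was 1.20-fold. Cdkn2c, which encodes p18, read 1844, 1719, 2068 and 2358 in the same order, highest with oxozeaenol, at 1.37-fold over TGF-beta2 alone. The 4 inhibitors had a median log2 change of 0.58 with oxozeaenol over TGF-beta2 alone, where the median of all measured genes was 0.05. Of the 4, 1 was at least 2-fold higher (1.82% of all measured genes were) and 3 were within 2-fold. Cdkn2b alone was below 0, at −0.13.

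**Figure D3:**
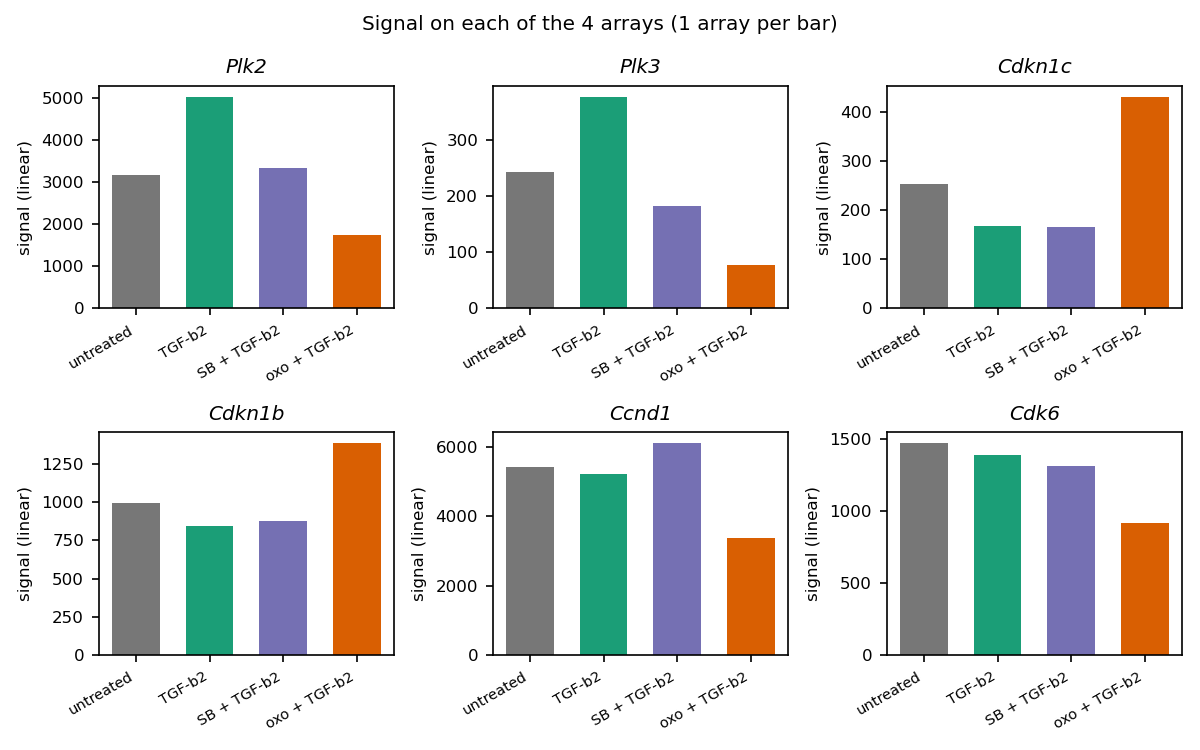
Linear signal (y axis, from 0) on each of the 4 arrays (x axis, 1 bar per array), for the members most apart between oxozeaenol and TGF-beta2 alone. There are no error bars because each group is 1 array. Plk2 and Plk3 peak with TGF-beta2 and are lowest with oxozeaenol, Cdkn1c and Cdkn1b are highest with oxozeaenol, and Ccnd1 and Cdk6 are lowest with it.

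All 8 G1 cyclins and kinases lay within 2-fold in every comparison. Most genes did so, since 6.70% of all measured genes were at least 2-fold apart in any comparison. By their brightest probe sets, 4 were lowest with oxozeaenol and the other 4 untreated. The share of all measured genes lowest on each array was not counted. Among the 4 lowest with oxozeaenol, Ccnd1 and Cdk6 were the furthest below TGF-beta2 alone. Ccnd1, which encodes cyclin D1, the growth factor-responsive D-type cyclin, read 5419 untreated, 5206 with TGF-beta2, 6106 with SB431542 and 3359 with oxozeaenol. In this brightest probe set the first 3 arrays lay close together and the oxozeaenol array below them, 1.55-fold under TGF-beta2 alone and 1.81-fold under SB431542. The dimmest probe set of Ccnd1 read 1306, 1738, 2011 and 1082, with the untreated array nearer to oxozeaenol than to TGF-beta2. All 3 probe sets of Ccnd1 were lower with oxozeaenol than with TGF-beta2 alone, by log2 changes of −0.63, −0.47 and −0.67. From untreated they differed by −0.69, −0.55 and −0.27 in the same order. Cdk6 read 1470 untreated, 1385 with TGF-beta2, 1309 with SB431542 and 916 with oxozeaenol. The oxozeaenol array was the lowest, at a log2 change of −0.59 from TGF-beta2 alone, and the other measured probe set of Cdk6 differed by −0.37. Cdk4, the partner kinase of the same cyclins, read 4028, 4273, 4856 and 4785 in the same order, with no low oxozeaenol array. The other D-type cyclins spanned less. Ccnd2, the brightest member of this role, read 13148, 13188, 15485 and 12433, a span of 1.25-fold, and Ccnd3 spanned 1.16-fold, both lowest with oxozeaenol. The 7 probe sets of Ccnd2 were all lower with oxozeaenol than with TGF-beta2 alone, with log2 changes from −0.33 to −0.02.

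At the next step, Cdk2 read 1001 untreated, 1555 with TGF-beta2, 1339 with SB431542 and 1732 with oxozeaenol. The untreated array was the lowest, and the 3 cultures that received TGF-beta2 were all above it, by 1.33-fold to 1.71-fold. Ccne1, which encodes cyclin E1, was likewise lowest untreated in its brightest probe set, with 1412 there, 1817 with TGF-beta2, 2154 with SB431542 and 1730 with oxozeaenol. The other measured probe set of Ccne1 read 868, 817, 900 and 821, so its lowest array was another. Ccne2 spanned 1.21-fold.

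At a looser rule of 1.5-fold, chosen after the values had been seen, Plk2, Plk3 and Cdk2 were higher with TGF-beta2 than untreated (3.01% of all measured genes were) and no member was lower (2.46%). After SB431542 none was higher than in the TGF-beta2 culture (3.64%), and Plk2 and Plk3 were lower (3.94%). Cdkn1b and Cdkn1c were higher with oxozeaenol than with TGF-beta2 alone (7.02%), and Ccnd1, Cdk6, Plk2 and Plk3 lower (5.8%). Between the inhibitors, Cdkn1b and Cdkn1c were higher with oxozeaenol (5.7%), and Ccnd1, Plk2 and Plk3 lower (4.44%). Against the untreated culture, Ccne1 was higher with SB431542 (2.96%) and no member lower (2.4%). With oxozeaenol, Cdk2, Cdkn1c and Bub1b were higher than untreated (5.94%), and Ccnd1, Cdk6, Plk2 and Plk3 lower (5.25%). These counts are of 41 members, and none of the comparisons was tested.

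The genes of origin licensing and DNA synthesis differed little between the cultures. All 12 measured members of this kind lay within 1.5-fold in every comparison. Most genes did so, since 66.9% of all measured genes spanned less than 0.5 log2 over the arrays, a tighter limit. E2f1, the transcription factor that the retinoblastoma protein restrains, had the widest span, with 472 untreated, 490 with TGF-beta2, 453 with SB431542 and 665 with oxozeaenol. Its oxozeaenol array was the highest, at 1.34-fold over TGF-beta2 alone, but the other measured probe set of E2f1 differed by only −0.03. Cdt1, which loads the replicative helicase onto origins, read 3743, 3364, 4310 and 3155 in the order untreated, TGF-beta2, SB431542 and oxozeaenol. Gmnn, which encodes geminin, the inhibitor of Cdt1, read 1777, 1584, 1736 and 1943. Cdt1 was thus lowest and geminin highest on the oxozeaenol array, both by small amounts. Cdc6, the other helicase loader, spanned 1.25-fold.

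The helicase subunits Mcm2 to Mcm7 had spans between 1.05-fold, for Mcm3, and 1.26-fold, for Mcm6. Mcm6 read 4618 untreated, 5042 with TGF-beta2, 3984 with SB431542 and 4284 with oxozeaenol, and Mcm7, the brightest of them, read 6038, 6058, 6607 and 6489. Mcm3 read 3258 untreated, 3366 with TGF-beta2, 3218 with SB431542 and 3294 with oxozeaenol, the narrowest span of any member. A dimmer probe set of Mcm3 read 127, 91.7, 200.1 and 214 and was 2-fold apart between oxozeaenol and TGF-beta2 alone, while the other 3 measured ones differed by at most 0.04. Pcna, the sliding clamp of DNA polymerases, read 10568, 11435, 12514 and 10949. Rrm2, the regulated subunit of ribonucleotide reductase, read 8379, 9751, 8565 and 8528 in its brightest probe set, with the TGF-beta2 array the highest. Its other measured probe sets had other highest arrays. The next in brightness read 5361, 5734, 5163 and 5860, highest with oxozeaenol. The dimmest read 1371, 1500, 1991 and 1870, highest with SB431542.

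Transcripts of G2 and mitosis also stayed within 2-fold, with a small offset towards higher signals on the oxozeaenol array. Staying within 2-fold was usual, since 6.70% of all measured genes were at least 2-fold apart in any comparison. Mki67, which encodes the proliferation marker Ki-67, read 2986 untreated, 2872 with TGF-beta2, 3141 with SB431542 and 3372 with oxozeaenol. Top2a, the topoisomerase that untangles replicated chromosomes, read 4616, 5027, 5269 and 5343. Cdk1, the kinase that drives entry into mitosis, read 4844, 4520, 5075 and 4771. These markers of dividing cells thus read at similar levels in all 4 cultures, with spans of 1.17-fold, 1.16-fold and 1.12-fold.

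All 15 measured members of G2, mitosis and chromosome structure were above their TGF-beta2 level on the oxozeaenol array in their brightest probe set, with log2 changes from 0.01 for Plk1 to 0.50 for Aurkb and a median of 0.17. Another measured probe set of Cenpe went the other way, at 489 with TGF-beta2 and 411 with oxozeaenol, a log2 change of −0.24. Of all measured genes, 57.4% were above 0 in the same comparison. With each array centred on its median the count was 14 of 15, with a median of 0.10, and 47.5% of all genes were above 0. Aurkb, the kinase of the chromosomal passenger complex, read 667 untreated, 704 with TGF-beta2, 805 with SB431542 and 1003 with oxozeaenol. Bub1b, which encodes the checkpoint protein BubR1, read 534, 639, 639 and 896. The oxozeaenol array was the highest for both, and the other measured probe set of each was higher with oxozeaenol than with TGF-beta2 alone too, by 0.39. Aurka, the spindle pole kinase, read 1118, 1099, 1130 and 1399.

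The remaining members of this group had narrower spans in their brightest probe sets. Bub1, the checkpoint kinase that recruits BubR1, read 1821, 1547, 1641 and 1888, lowest with TGF-beta2. Ccnb2, which encodes cyclin B2, read 1867, 1796, 2083 and 2227, and Ccna2, which encodes cyclin A2, 3030, 2937, 3121 and 3323. Cdc20, the activator of the anaphase-promoting complex, read 6229, 6614, 6491 and 7008, and Mad2l1, its checkpoint inhibitor, 3114, 3351, 3580 and 3639. In these probe sets both were lowest untreated and highest with oxozeaenol, by 1.12-fold and 1.17-fold. The next probe set of Cdc20 read 2652, 2485, 2930 and 3353, lowest with TGF-beta2. Its dimmest read 199, 233, 273 and 310, a wider span. Birc5, which encodes survivin, read 4317, 4050, 4106 and 4377, and the centromere genes Cenpa and Cenpe spanned 1.09-fold and 1.25-fold. With TGF-beta2 over untreated, 6 of the 15 were above 0 and the median was −0.04, where 44.0% of all measured genes were above 0. With SB431542 over TGF-beta2 alone, 13 were above 0 with a median of 0.08, against 55.2% of all measured genes.

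Promoter sequence was set beside these roles. The cell cycle homology region TTTGAA (CHR), known from mitotic promoters, was found in the windows of 9 of 14 members of G2, mitosis and chromosome structure and in 1 of 11 members of licensing and DNA synthesis. E2F sites, searched as TTTCGCGC, TTTGGCGC and TTTCCCGC on both strands, were found in 6 of 11 members of licensing and DNA synthesis and in 1 of 14 of the mitotic members. These counts include Ccnb1 and Tyms, which have windows but no measured signal. Of all 27025 genes with a window, 20.2% held TTTGAA and 2.12% held an E2F site. In all, 35 of the 43 members had a window, and Ccnd1, Ccnd2, Ccne2, Cdkn1c, Gmnn, Mcm4, Ccna2 and Aurkb had none in the table used. Cdk1 and Mcm6 were picked after the search as examples of each kind, at chr10:69352863-69353162 and chr1:128359656-128359955 of GRCm38.p6, both on the minus strand, with the E2F and CHR matches in capitals.
Cdk1: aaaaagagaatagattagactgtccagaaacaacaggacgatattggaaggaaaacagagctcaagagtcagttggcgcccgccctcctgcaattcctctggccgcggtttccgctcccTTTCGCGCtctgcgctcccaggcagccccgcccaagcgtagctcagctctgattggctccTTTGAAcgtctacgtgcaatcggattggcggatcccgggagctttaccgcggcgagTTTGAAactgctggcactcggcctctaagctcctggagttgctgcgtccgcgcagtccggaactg
Mcm6: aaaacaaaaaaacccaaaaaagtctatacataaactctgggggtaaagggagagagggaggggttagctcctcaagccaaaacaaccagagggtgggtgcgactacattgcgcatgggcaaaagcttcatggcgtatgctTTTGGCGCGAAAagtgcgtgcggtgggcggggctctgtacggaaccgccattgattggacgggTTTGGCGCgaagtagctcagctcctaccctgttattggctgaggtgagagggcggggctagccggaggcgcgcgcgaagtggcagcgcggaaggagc
The Cdk1 window held an E2F site at −131 and TTTGAA at −71 and −15. The Mcm6 window held 3 E2F matches, at −110, −106 and −47, of which the first 2 overlap. Neither window held a CRE or its core.

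Other genes of the same machinery, listed by role with earlier results of these data known, gave a similar picture. Of 28 measured G1/S and replication genes outside the 43, none was 2-fold apart in any comparison (6.70% of all measured genes were), and with oxozeaenol over TGF-beta2 alone 23 were above 0 with a median log2 change of 0.18. Of 32 measured G2 and mitosis genes, none was 2-fold apart either, and 26 were above 0 with a median of 0.18 in that comparison. Of all measured genes 57.4% were above 0 there, with a median of 0.05. Nek2, a centrosomal kinase named here after its values were seen, was the furthest apart in that comparison, with 721 untreated, 662 with TGF-beta2, 653 with SB431542 and 1170 with oxozeaenol.

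The 21 measured growth arrest and G1 regulators outside the 43 were more spread. With TGF-beta2 over untreated, 0 were at least 2-fold higher (0.673% of all measured genes were) and 1 was lower (0.366%), namely Gas1, a membrane protein linked to growth arrest. Gas1 read 4820 untreated, 2082 with TGF-beta2, 5887 with SB431542 and 5925 with oxozeaenol, so the TGF-beta2 array alone was low. With SB431542 over TGF-beta2 alone, Gas1 was higher (0.613%), and Gadd45b and Foxo1, a stress response gene and a forkhead factor, were lower (1.18%), each by at least 2-fold. With oxozeaenol over TGF-beta2 alone, Gas1 was higher (1.82%), and Myc and Btg2 were lower (2.17%). Myc, a transcription factor that promotes entry into the cycle, read 1676, 2376, 1736 and 309, and Btg2, an antiproliferative early gene, read 456, 858, 450 and 363. Like Plk2 and Plk3, these were highest with TGF-beta2 and lowest with oxozeaenol. Cdkn1a, the p21 inhibitor, also named outside the 2-fold rule, read 8421, 8949, 8285 and 9946 and was within 2-fold throughout. Gadd45a was at least 2-fold higher with SB431542 than untreated (0.468%), at 1543 against 741, and none was lower (0.383%). With oxozeaenol, Gadd45b was 2.05-fold higher than untreated (1.49%) and 2.74-fold higher than with SB431542 (1.51%). Myc was 5.13-fold lower than untreated (1.51%) and 5.32-fold lower than with SB431542 (1.3%).

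**Figure D4:**
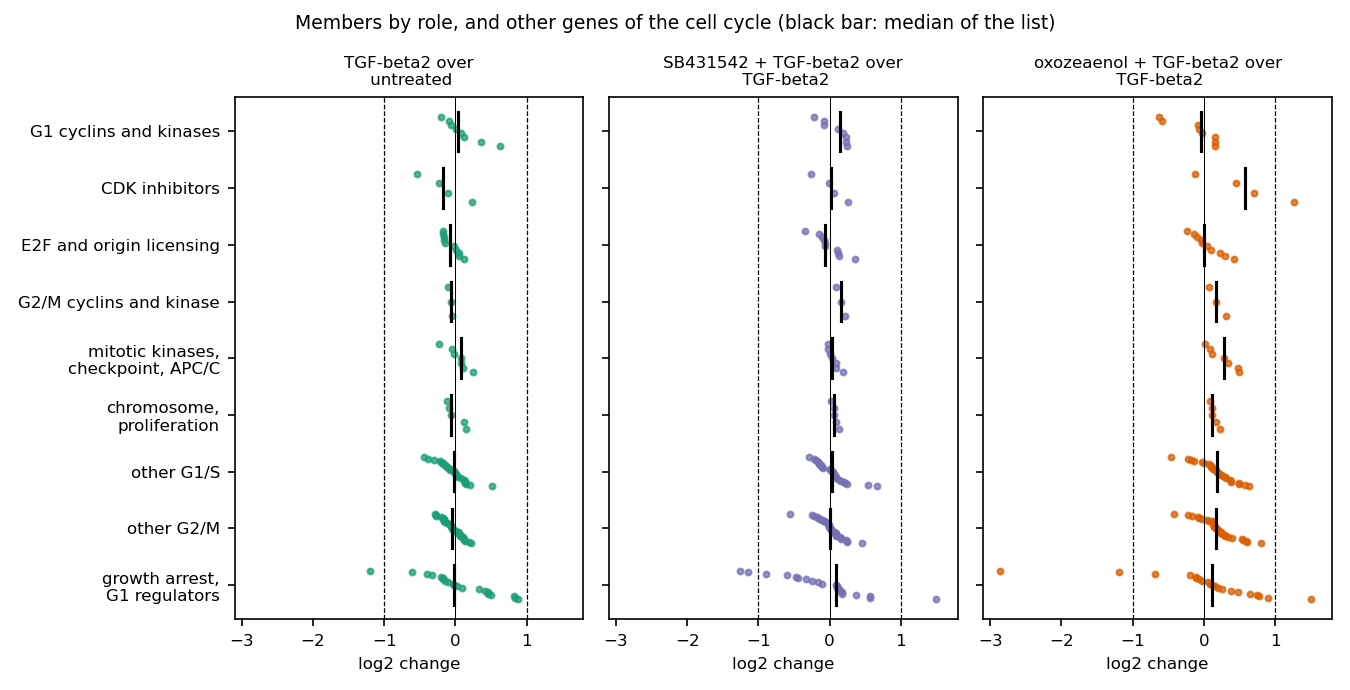
Log2 change (x axis) of each measured gene in 3 comparisons (panels), for the larger role groups of the 43 genes and for the other cell cycle lists (y axis), with 1 point per gene and a black bar at the list's median. The lists of replication and mitosis genes stay between the dashed 2-fold lines in all panels. The growth arrest and G1 regulators reach beyond both lines with SB431542 and with oxozeaenol, and beyond the lower line with TGF-beta2. Their furthest point is Myc with oxozeaenol, at −2.86.

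The labelled tissue was checked against markers, and in bulk RNA fewer cells of a type and less RNA per cell cannot be told apart. Of 14 markers of palatal mesenchyme 13 were measured, with summed signals between 87993 and 101128 over the 4 arrays, and Osr2 was under the filter. That sum is mostly Vim and the collagens, and single markers differed more. With TGF-beta2 over untreated 9 of the 13 were lower, Pdgfra by a log2 change of −1.09, and with SB431542 over TGF-beta2 alone 12 were higher, Pdgfra by 1.16 and Shox2 by 1.01. With oxozeaenol, Shox2 was higher than with TGF-beta2 alone, by 1.24, and Twist2 differed by −1.57 from SB431542 and by −1.07 from untreated. All 12 macrophage and blood markers were measured, with sums of 76946 untreated, 72670 with TGF-beta2, 73509 with SB431542 and 63582 with oxozeaenol. Lyz2, C1qa and Tyrobp read 15113, 10623 and 10397 untreated, so transcripts of macrophages were bright beside those of mesenchyme. Sums over different markers do not give shares of cells. The members' signals cannot be assigned to either cell type. Of 10 epithelial markers 7 were measured, with sums of 1910, 1793, 1859 and 5723, while Trp63 and Grhl3 were under the filter. No measured marker was at 0. All 7 were higher with oxozeaenol than with TGF-beta2 alone, with log2 changes of 2.82 for Krt14 and 2.46 for Krt5, which make up most of the sum there, 2.03 for Krt19, and less for the others, 0.34 for Krt18 being the smallest. Cdh1 was 1.19 above SB431542, and Epcam read 369 untreated and 366 with oxozeaenol. Of the macrophage and blood markers 11 of 12 were lower with oxozeaenol than with TGF-beta2 alone, Cd14 being furthest from untreated at −1.02, and Lyz2 was lowest untreated. The oxozeaenol array was also the one on which Plk2, Plk3, Ccnd1 and Cdk6 were lowest and Cdkn1c and Cdkn1b highest. In their brightest probe sets 13 of the 15 mitotic genes were highest there too, the exceptions being Cdk1 and Plk1. Of all measured genes, 57.4% were higher there than with TGF-beta2 alone, 53.1% than with SB431542 and 53.3% than untreated. The share of all measured genes highest on that array was not counted. The part of these marker shifts in the members' differences was not tested. Of 8 endothelial, 8 skeletal muscle and 6 neural and glial markers, 2, 4 and 2 were measured, and of these Des alone was 2-fold apart, at −1.51 with oxozeaenol over TGF-beta2 alone.

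Probe sets of the same gene give the only other view of a member on these arrays. In all 22 members had several measured probe sets. With oxozeaenol over TGF-beta2 alone, all of a gene's probe sets were above 0 in 11 of the 22, all below 0 in 5 and mixed in 6. With TGF-beta2 over untreated the signs were mixed in 11 of 22, and with SB431542 over TGF-beta2 alone in 10. The same counts were not made for all measured genes, so these have no background beside them. The 18 member probe sets under the filter had signals of at most 91.9. Of these, 7 were 2-fold apart in some comparison, which for such dim signals depends on the pseudocount. The share of all probe sets under the filter that were 2-fold apart was not counted.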

How the data were processed

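RNA of 4 cultures was hybridised to Affymetrix 3′ arrays, 1 per culture, from 500 ng of total RNA per the labels' protocols. The authors deposited linear intensities of 45101 probe sets per array. Per the submitters' processing notes the software was GCOS, with no version or setting named. Each array's mean without the lowest and highest 2% of probe sets was 500.0, so the deposited intensities share a common level.

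Control probe sets (64) were left out. Of the rest, 34945 had 1 gene symbol in the platform annotation, 932 several and 9160 none. Intensities became log2(value + 21.7), the pseudocount being the 25th percentile of all values. Probe sets with a mean at or above the median were kept, and the brightest of a gene stood for it. Signals are printed for members at least 2-fold apart in any comparison and at least the 2 brightest of each role, and other listed genes are named if 2-fold apart; further names were added after their values were seen. The members and lists were chosen with earlier results of these data known. The number of arrays limits the precision. The script was tested on simulated data. Alternatives were other pseudocounts, filters, normalizations and probe set rules. Python 3.11.15, numpy 2.4.6 and pandas 2.3.3 were used.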

Additional observations from a re-analysis of the deposited data

How the results depend on the processing

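Of the 84 counts of members at least 2-fold apart under 7 alternatives, 77 stayed the same. With the pseudocount at the median, Plk3 was no longer at least 2-fold lower with oxozeaenol than with SB431542, leaving 0 members, at a log2 change of −0.79. With the pseudocount at the 10th percentile, 1 member, Plk3, was at least 2-fold below the TGF-beta2 culture after SB431542. Under the stricter filter, which left 39 measured members without Plk3 and Cdkn1c, 0 were higher and 1, Plk2, was lower with oxozeaenol than with TGF-beta2 alone, 0 were higher and 0 lower than with SB431542, and 0 were lower than untreated. With the 1.5-fold rule, added after the data were seen, 3 members were higher with TGF-beta2 than untreated, 2 were below the TGF-beta2 culture after SB431542, 2 were higher and 4 lower with oxozeaenol than with TGF-beta2 alone, 2 higher and 3 lower than with SB431542, 1 was higher with SB431542 than untreated, and 3 were higher and 4 lower with oxozeaenol than untreated. No called member changed sign under these alternatives. The 42 median changes of the members each moved by at most 0.1 log2. For oxozeaenol over TGF-beta2 alone they lay between 0.03 and 0.14, and the log2 change of Plk3 between −2.22 and −1.61. No paired analysis was possible because each group holds 1 array, and no array could be left out. Signals near the filter level, as for Plk3 with oxozeaenol, limit the precision of a fold.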
